A study of Mus musculus with 24 samples.

Results

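The cytoplasmic ribosomal protein genes were followed in mouse ear RNA after the psoriasis-associated mutation E138A had been switched on in Card14, a scaffold protein that activates NF-kB. They were taken as the rows of the count table whose mouse symbol begins with Rpl or Rps and a digit, or is Rplp0, Rplp1, Rplp2 or Rpsa, leaving out pseudogenes named -ps and the Rps6k kinase and Rps19bp genes. This gave 92 genes of 51912 rows. Of these 92, 85 are annotated as protein-coding and 7 as pseudogenes (Rpl6l, Rpl32l, Rpl37rt, Rps3a2, Rps3a3, Rps4l and Rps12l1). Counts of 90 genes were high enough to test; Rpl32l was too low, and Rpl10l, a paralog known from testis, was listed at 0 in all 24 libraries. The 24 whole-ear libraries formed 4 groups of 6: Card14 E138A at day 5, WT at day 5, Card14 E138A at 1 month and WT at 1 month, with time counted from the first tamoxifen injection.

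All animals were C57BL/6, and all received tamoxifen intraperitoneally once a day for 3 consecutive days. In the E138A animals the mutant allele was a conditional (loxP-stop-loxP) knock-in at the endogenous Card14 locus, switched on by tamoxifen through CreERT2. The promoter behind CreERT2, the presence of CreERT2 in WT animals, age and sex are not given in the sources used here. Nothing in the labels says that the 6 libraries of a group came from separate animals, so p-values measure the spread between these libraries. The point mutation itself cannot be read from gene counts. Card14 levels overlapped at day 5, with 35.1 to 65.4 CPM (gene counts relative to the library's total, scaled between libraries) in E138A ears and 34.6 to 54.2 CPM in WT ears, and were lower without overlap at 1 month, with 9.93 to 25.3 CPM in E138A ears and 32.9 to 49.9 CPM in WT ears.

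A cytoplasmic ribosome joins a large and a small subunit, each a scaffold of ribosomal RNA dressed with proteins, most of which are needed in equal numbers. Most of these proteins come from a single active gene, which is read at a very high level in dividing and secreting tissue. The genome also carries many processed copies of each, so short reads can match several rows of a count table. Their mRNAs typically begin with a C followed by a run of pyrimidines, the 5′ terminal oligopyrimidine or TOP motif, through which mTORC1 and Larp1 control their translation. Ribosome assembly begins in the nucleolus, where RNA polymerase I makes the rRNA precursor and a separate set of biogenesis factors processes it.

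Start regions show what these genes share in sequence apart from their names. RefSeq promoters (GRCm38.p6) were found for 67 of the 92 genes. The windows below run from 30 bases before to 20 bases after the annotated start, 5′ to 3′ on the gene's strand, and capitals mark each C followed by at least 4 bases that are all C or T, searched from 10 bases before the start to 30 bases after it. The windows of Rps6, Rplp2, Rpl7a and Rpl35 show long tracts at or near the start. Rps6 and Rpl7a were themselves called higher in E138A ears at day 5, so the windows do not separate genes with and without a genotype difference. The windows of Rpl36al, Rpl27, Rpl7l1 and Rpl3l are shown because the largest or steadiest genotype differences were in these genes; they hold none or a single short tract after the start.
Rps6 (chr4:86857348-86857397, minus strand): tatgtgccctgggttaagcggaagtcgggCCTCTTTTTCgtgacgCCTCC
Rplp2 (chr7:141447621-141447670, plus strand): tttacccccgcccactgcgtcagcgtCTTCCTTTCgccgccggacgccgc
Rpl7a (chr2:26910777-26910826, plus strand): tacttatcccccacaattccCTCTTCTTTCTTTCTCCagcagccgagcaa
Rpl35 (chr2:39005112-39005161, minus strand): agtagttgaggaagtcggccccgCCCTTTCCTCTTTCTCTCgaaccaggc
Rpl36al (chr12:69184048-69184097, minus strand): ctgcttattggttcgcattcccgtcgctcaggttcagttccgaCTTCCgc
Rpl27 (chr11:101442215-101442264, plus strand): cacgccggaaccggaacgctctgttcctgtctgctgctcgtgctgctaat
Rpl7l1 (chr17:46782637-46782686, minus strand): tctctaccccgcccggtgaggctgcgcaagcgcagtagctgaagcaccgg
Rpl3l (chr17:24727796-24727845, plus strand): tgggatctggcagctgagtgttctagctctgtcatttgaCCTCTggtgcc
Matches were counted by gene symbol, and a symbol with several annotated promoters counted if any of them matched. Such a tract on the sense strand of that window was found in 52 of the 67 (77.6%), against 47.3% of 27025 gene symbols. On the other strand it was found in 26 of the 67 (38.8%), against 54.6% of 27025 gene symbols. With the C placed exactly at the annotated start, the match was found in 15 of the 67 (22.4%), against 3.01% of 27025 gene symbols. The hexamer CGGAAG, searched on both strands over the whole 300 bases, was present in 43 of the 67 (64.2%), against 18.8% of 27025 gene symbols. The heptamer AAGATGG, searched in the same way, was present in 10 of the 67 (14.9%), against 7.28% of 27025 gene symbols. TATAAA on the sense strand of the 50 bases before the start was present in 1 of the 67 (1.49%), against 3.15% of 27025 gene symbols. These matches describe the letters of the windows, and annotated starts need not be those used in the ear.

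Total gene counts were 16803734 to 18852993 in E138A libraries at day 5 and 15661568 to 16998934 in WT libraries at day 5, and 20608312 to 23022178 in E138A libraries at 1 month and 19255037 to 23905033 in WT libraries at 1 month. Cell type markers moved with genotype. Summed neutrophil markers ran at 1932 to 8698 CPM in E138A ears and 8.88 to 13.0 CPM in WT ears at day 5, with all 5 higher at both times. Summed proliferation markers ran at 532 to 711 CPM in E138A ears and 233 to 277 CPM in WT ears at day 5. Summed keratinocyte markers overlapped at day 5, with 23787 to 33428 CPM in E138A ears and 19118 to 27435 CPM in WT ears. At 1 month these sums did not overlap, with 26853 to 46850 CPM in E138A ears and 14532 to 25465 CPM in WT ears. All 5 chondrocyte, 4 of 4 adipocyte, 4 of 4 melanocyte, 3 of 5 fibroblast and 3 of 5 T cell markers were lower in E138A ears at day 5, while 1 fibroblast marker, 2 of 5 keratinocyte, 4 of 5 proliferation and 4 of 5 macrophage markers were higher; of 4 B cell markers 1 was high enough to test and was not called. At 1 month 3 of 5 chondrocyte and 4 of 4 adipocyte markers were lower, while 5 of 5 macrophage and 5 of 5 proliferation markers, 1 of 4 melanocyte markers and the 1 tested B cell marker were higher. The other lists were mixed at 1 month, with 4 higher and 1 lower of 5 fibroblast markers, 3 higher and 1 lower of 5 keratinocyte markers and 1 higher and 2 lower of 5 T cell markers. Of all genes, 20.7% were called higher and 20.2% lower at day 5, and 25.5% and 21.5% at 1 month. A single marker called among 4 or 5 lies near those shares. None of these marker lists held a gene at 0 in any group. In whole ears, fewer cells of a type and less RNA per cell cannot be told apart, and the part of cell composition in the results that follow was not tested.

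The ribosomal protein genes together took a small and variable share of the reads. Their summed share of all gene counts had a lowest, median and highest value of 3.78, 4.49 and 6.16% in the 6 E138A libraries at day 5, against 3.59, 3.76 and 4.12% in the 6 WT libraries. At 1 month it was 3.85, 4.89 and 7.20% in E138A libraries and 3.72, 5.65 and 6.25% in WT libraries. At day 5 the WT libraries lay close together and E138A replicate 1 stood above the other 5 E138A libraries, and at 1 month both genotypes spread over nearly the same range. E138A replicate 1 held the highest level of 82 of the 90 genes among the E138A libraries at day 5, and WT replicate 1 the lowest level of 80 of the 90 among the WT libraries at 1 month. The median coefficient of variation over the 90 genes was 17.0% in E138A and 8.25% in WT at day 5, and 35.2% in E138A and 24.5% in WT at 1 month. Over all 17287 genes tested it was 16.5% in E138A and 10.7% in WT at day 5, and 30.1% in E138A and 24.4% in WT at 1 month.

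The libraries of 1 month fell apart by base composition and by transcript length, and the share of ribosomal protein genes moved with both. For each library, the deviation of every gene from its mean over all libraries was correlated with the gene's GC content (Spearman, over genes). E138A replicates 3, 4 and 5 and WT replicates 1 and 6 had negative values, between -0.462 and -0.178, and ribosomal protein shares of 3.72% to 4.41%. The other 7 libraries of that time had positive values, between 0.151 and 0.546, and shares of 5.59% to 7.20%. The corresponding correlation with transcript length split the same libraries, at 0.0856 to 0.238 in the 5 and -0.246 to -0.0579 in the 7. At day 5 the share did not follow the GC correlation in this way. There E138A replicate 1 had the most negative value, -0.396, and the highest share, 6.16%. At day 5, the corresponding correlation with transcript length did not overlap between genotypes, at -0.106 to 0.0697 in E138A libraries and 0.112 to 0.208 in WT libraries. The part of these library properties in the results was not tested beyond the alternative fits given beside them.

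**Figure D1:**
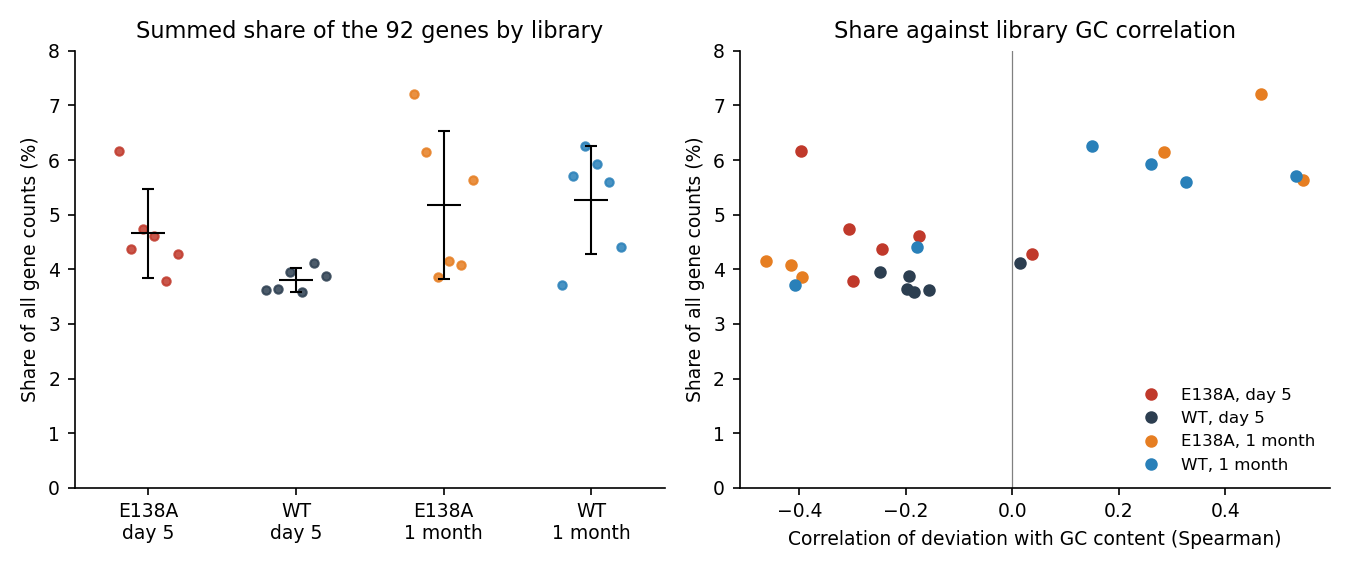
Left, the share of all gene counts (percent) taken by the 92 ribosomal protein genes in each library (points), with the mean and SD (bars, n = 6 a group); right, the same share against the correlation of each library's deviations with gene GC content. The 7 libraries of 1 month with a positive correlation lie at 5.59% or more and the 5 with a negative one at 4.41% or less.

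Levels differed widely among the genes. Per kilobase of median transcript length and averaged over the 24 libraries, Rplp0, the base of the stalk that binds elongation factors, had the highest level with 3076 CPM per kilobase, followed by Rpl13a with 2683 and Rplp1 with 1822. Among protein-coding members above 0, the lowest were Rpl39l with 3.38 CPM per kilobase, Rpl3l with 25.7 and Rpl27 with 39.0. The value of Rpl27 is that of its own row, and its processed copy Gm11518 held more reads at day 5 in both genotypes, as given below. Between 76 and 79 of the 90 tested genes had a group mean above 100 CPM in each of the 4 groups. Of their values 89.5% were not whole numbers, against 6.71% of all values; in RSEM a value that is not whole holds at least 1 read divided between rows. By 75-base stretches of annotated transcripts (75 bases being the stated minimum read length), 89 of the 92 shared sequence with at least 1 other row of the table, 698 rows in all.

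At day 5, fitted log2 fold changes of ribosomal protein genes were mostly small and positive in E138A against WT ears, a direction that turned when library length correlation was a covariate (6 higher, 23 lower, median -0.15). Adjusted p was below 0.05 (edgeR quasi-likelihood test, Benjamini-Hochberg over 17287 genes) for 25 higher genes and 1 lower gene, Rpl3l, of the 90 tested. The 25 are 27.8% of the 90, against 20.7% of all genes called higher, 20.2% called lower and 40.9% called in either direction. The median log2 fold change of the 90 was 0.36, against -0.02 over all genes, and 88 of 90 values were positive. In 31 of 90 genes every E138A library lay above every WT library, against 17.9% of all genes, and in 1 every E138A library lay below, against 16.5%.

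Among the large-subunit genes 14 of 43 (32.6%) rose and none fell, against 20.7% of all genes called higher, with a median log2 fold change of 0.40. Rpl27 had the largest fold as a single row, but was not called when summed with the rows that share its sequence (0.44, adjusted p = 0.0755). It had a lowest, median and highest level of 22.1, 29.9 and 32.6 CPM in E138A ears and 11.5, 13.2 and 16.2 CPM in WT ears, a log2 fold change of 1.10 ± 0.22 (SE, adjusted p = 0.000303). Rpl41, which encodes the smallest ribosomal protein, stood at 752, 846 and 1109 CPM in E138A ears and 475, 520.1 and 583 CPM in WT ears, a log2 fold change of 0.76 ± 0.24 (adjusted p = 0.0141). In both genes the groups did not overlap. Rpl10, an X-linked gene whose protein completes the large subunit, stood at 629.7, 819 and 1070.0 CPM in E138A ears and 373, 524 and 547 CPM in WT ears, a log2 fold change of 0.69 ± 0.17 (adjusted p = 0.00198). Rpl38, the gene deleted in the tail-short mouse, rose with a log2 fold change of 0.59 ± 0.21 (adjusted p = 0.0255), and Rpl12, next to the stalk, with 0.81 ± 0.19 (adjusted p = 0.00179).

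Among the small-subunit genes 7 of 31 (22.6%) rose and none fell, a share near the 20.7% of all genes called higher, with a median log2 fold change of 0.35. Rps6, the protein phosphorylated by S6 kinases downstream of mTORC1, stood at 414, 524 and 709 CPM in E138A ears and 301, 340.2 and 396 CPM in WT ears, without overlap, a log2 fold change of 0.65 ± 0.17 (adjusted p = 0.00402). Rps2, at the mRNA entrance of the small subunit, stood at 1274, 1434 and 1745 CPM in E138A ears and 848, 895 and 1106 CPM in WT ears, a log2 fold change of 0.66 ± 0.21 (adjusted p = 0.014). Rps12 rose with a log2 fold change of 0.69 ± 0.18 (adjusted p = 0.00331). A further 15 genes outside the 10 largest changes rose with log2 fold changes between 0.35 and 0.54, among them Rps27a, which encodes a fusion with ubiquitin.

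The stalk did not pass the test at day 5 in the main fit. Rplp0 had 2319 ± 305 CPM in E138A ears and 2281 ± 245 CPM in WT ears (SD, n = 6 each), a log2 fold change of 0.02 ± 0.20 (adjusted p = 0.941), and Rplp1 and Rplp2 had 0.32 ± 0.24 and 0.38 ± 0.23 (adjusted p = 0.307 and 0.19). Nor did Rpsa, also known as the laminin receptor, at 0.36 ± 0.21 (adjusted p = 0.185). Rpl5 and Rpl11, which form a complex with 5S rRNA that holds back Mdm2 when assembly fails, had 0.22 ± 0.29 and 0.45 ± 0.22 (adjusted p = 0.583 and 0.112), and Rps19, mutated in Diamond-Blackfan anaemia, had 0.23 ± 0.20 (adjusted p = 0.379). Rack1 and Fau, which encode ribosomal proteins but fall outside the symbol rule, had 0.39 ± 0.22 and 0.25 ± 0.23 (adjusted p = 0.166 and 0.401). Over 40 alternatives Rplp0 was called higher in 0 and lower in 1. Rplp1, Rplp2 and Rpsa were each called higher in 3 and lower in 1. Rps19 was called higher in 1 and lower in 1, Rpl5 higher in 2 and Rpl11 higher in 3.

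The day 5 count depended on library properties. Since the length correlation did not overlap between the genotypes at day 5, genotype and length correlation cannot be told apart. With the GC correlation as covariate, or with limma voom and library quality weights, 69 were higher and 1 lower, and with the day 5 libraries fitted alone 72 of 89 were higher and 1 lower. Without E138A replicate 1 of day 5, 15 genes were higher and 1 lower. The shares of all genes given above belong to the main fit, and no such share stands beside these counts.

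**Figure D2:**
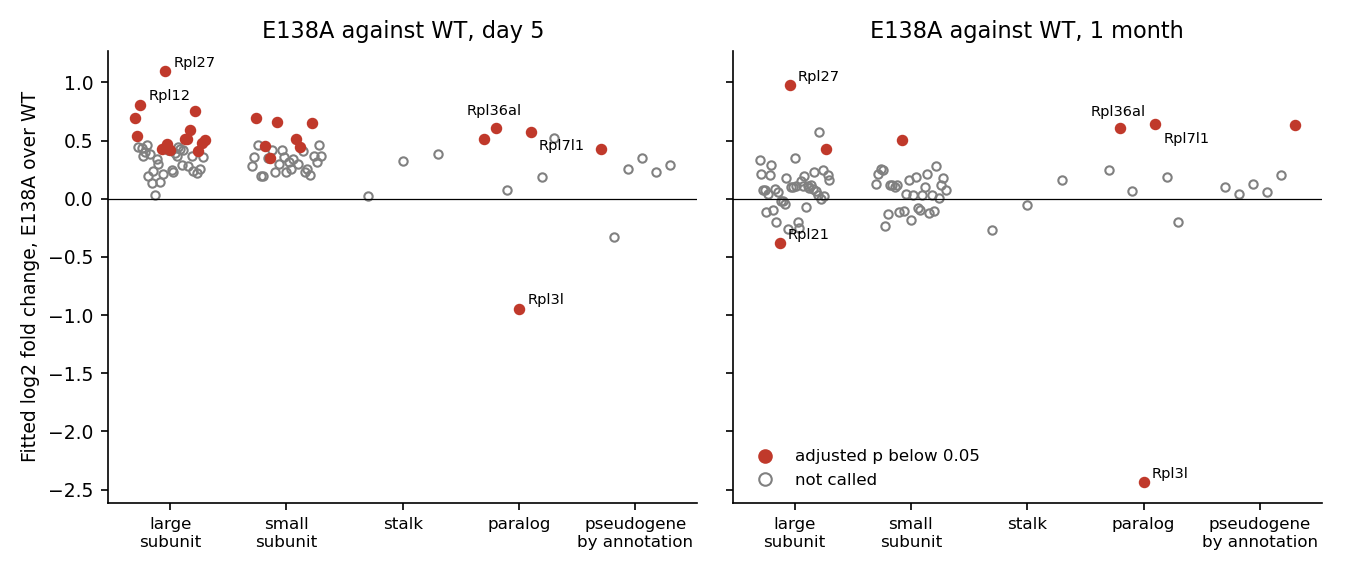
Fitted log2 fold change, E138A over WT, of each of the 90 tested genes at day 5 (left) and 1 month (right), grouped by subunit or kind, with filled points for adjusted p below 0.05. At day 5 nearly all points lie above 0 and 25 higher genes are called; at 1 month 6 higher genes are called, and Rpl3l lies lowest at -0.94 on day 5 and -2.44 at 1 month.

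Of the paralogs, Rpl36al, Rpl7l1 and Rpl3l were called between genotypes at both times. Rpl36al (ENSMUSG00000049751, chr12:69182731-69184083, GRCm38, minus strand) encodes a protein nearly identical to that of X-linked Rpl36a. It stood at 148, 178 and 209.6 CPM in E138A ears and 113, 117 and 125 CPM in WT ears at day 5, and at 160.2, 176 and 190.1 CPM in E138A ears and 91.3, 118 and 133 CPM in WT ears at 1 month. The groups did not overlap at either time, and the log2 fold changes were 0.61 ± 0.09 at day 5 and 0.60 ± 0.09 at 1 month (adjusted p = 1.02e-05 and 6.54e-06). Rpl36al was called higher in all 40 alternatives run at day 5 and all 42 run at 1 month, with log2 fold changes from 0.55 to 0.64 and from 0.53 to 0.65. Its parent Rpl36a stood at 125, 142 and 211 CPM in E138A ears and 97.2, 104 and 118 CPM in WT ears at day 5, without overlap, and rose by 0.51 ± 0.16 on the log2 scale (adjusted p = 0.0102). Rpl36al overlaps Gm49383 (69182834 to 69197104 on the same strand), which averaged 5.43 ± 0.931 CPM in E138A ears and 5.03 ± 0.730 CPM in WT ears at day 5. At 1 month Rpl36a had 0.09 ± 0.15 (adjusted p = 0.677).

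Rpl7l1, a relative of Rpl7 whose yeast counterpart Rlp7 acts in large-subunit assembly, was higher in E138A ears at both times. It stood at 64.5, 96.3 and 101 CPM in E138A ears and 58.5, 60.7 and 62.9 CPM in WT ears at day 5, and at 83.7, 104 and 141 CPM in E138A ears and 59.0, 66.1 and 80.5 CPM in WT ears at 1 month. Neither pair of groups overlapped, and the log2 fold changes were 0.58 ± 0.13 and 0.64 ± 0.12 (adjusted p = 0.0007 and 0.000173). Rpl7 itself had 0.25 ± 0.15 at day 5 and 0.03 ± 0.15 at 1 month (adjusted p = 0.198 and 0.91). Rpl22l1, which can stand in for Rpl22 in the ribosome, rose at day 5 by 0.52 ± 0.20 (adjusted p = 0.0408), with 43.7, 51.6 and 70.9 CPM in E138A ears and 35.2, 37.5 and 42.1 CPM in WT ears. Rpl22 had 0.34 ± 0.18 (adjusted p = 0.135). Rps27l, a p53 target, and Rpl39l, known from testis, had 0.19 ± 0.17 and 0.07 ± 0.26 at day 5 (adjusted p = 0.421 and 0.859). Their parents Rps27 and Rpl39 had 0.34 ± 0.21 and 0.36 ± 0.24 (adjusted p = 0.207 and 0.238), Rps27rt had 0.52 ± 0.26 (adjusted p = 0.122), and Rps4x had 0.25 ± 0.11 (adjusted p = 0.062).

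Rpl3l, the muscle paralog of Rpl3 (ENSMUSG00000002500, chr17:24727820-24736143, GRCm38, plus strand), went the other way from most of the family. It stood at 6.07, 9.40 and 15.01 CPM in E138A ears and 15.3, 19.2 and 25.5 CPM in WT ears at day 5, without overlap, a log2 fold change of -0.94 ± 0.37 (adjusted p = 0.0421). At 1 month it stood at 4.10, 9.56 and 23.6 CPM in E138A ears and 23.0, 57.4 and 119.9 CPM in WT ears, a log2 fold change of -2.44 ± 0.38 (adjusted p = 1.09e-05), with 1 E138A library inside the WT range. The day 5 call held in 30 of 40 alternatives and the 1 month call in all 42. Skeletal muscle markers moved with it: their summed level was 988 to 1883 CPM in E138A ears and 2471 to 3480.1 CPM in WT ears at day 5, and 419 to 3054 CPM in E138A ears and 3453 to 13619 CPM in WT ears at 1 month. Of the 6 markers, 4 were lower at day 5 and 6 at 1 month, against 20.2% and 21.5% of all genes called lower. None was at 0 in any group. The E138A library with the highest Rpl3l at 1 month was replicate 1, with 23.6 CPM. Its muscle sum, 3054 CPM, was also the highest among the E138A libraries of that time. The part of muscle content in the Rpl3l difference was not tested. Rpl3 itself averaged 1209 ± 152 CPM in E138A ears and 1021 ± 74.9 CPM in WT ears at day 5 and had 0.24 ± 0.16 at day 5 and 0.11 ± 0.16 at 1 month (adjusted p = 0.246 and 0.621).

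**Figure D3:**
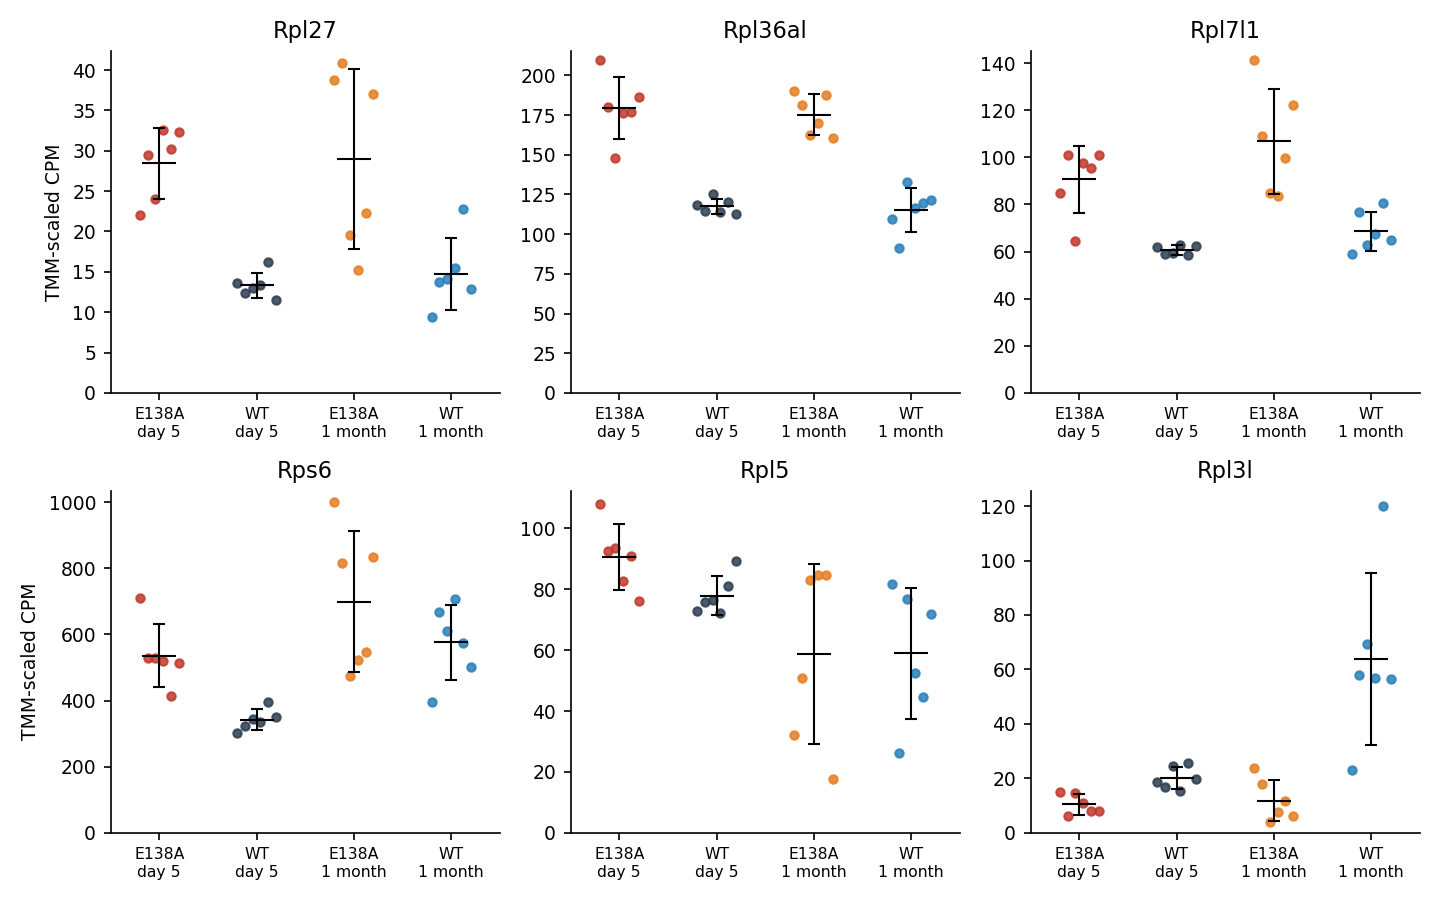
Scaled CPM of 6 genes in every library (points), with the group mean and SD (bars, n = 6). Rpl36al and Rpl7l1 show no overlap between E138A and WT at either time, Rpl27 and Rps6 overlap at 1 month, Rpl5 overlaps at both times, and Rpl3l is lower in E138A ears.

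At 1 month the family as a whole was nearly level between genotypes while single members differed. Rpl27, Rpl7l1, Rps4l, Rpl36al, Rps2 and Rpl7a were higher in E138A ears and Rpl3l and Rpl21 lower, 8 of 90 tested against 47.1% of all genes called in either direction. The median log2 fold change of the 90 was 0.10, against 0.05 over all genes, and 65 of 90 values were positive. Both genes in which all E138A libraries lay above all WT libraries were paralogs, Rpl36al and Rpl7l1, 2 of 90 against 12.2% of all genes, and no gene had all of them below, against 9.04% of all genes. Of the 25 genes higher at day 5, 5 (20%) were also higher at 1 month, where they made up 83.3% of the 6 higher genes: Rpl27, Rpl36al, Rpl7a, Rpl7l1 and Rps2.

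Rpl27 stood at 15.2, 29.7 and 40.8 CPM in E138A ears and 9.45, 13.9 and 22.8 CPM in WT ears at 1 month, a log2 fold change of 0.97 ± 0.22 (adjusted p = 0.000641), with overlap between the groups. Rpl7a had 0.43 ± 0.16 and Rps2 0.51 ± 0.21 (adjusted p = 0.0351 and 0.0498), and the calls held in 25 and 14 of 42 alternatives. Rps4l, a pseudogene by annotation, stood at 20.04, 45.3 and 72.7 CPM in E138A ears and 18.9, 27.5 and 36.8 CPM in WT ears, a log2 fold change of 0.64 ± 0.23 (adjusted p = 0.0255). Rpl21 was the lower large-subunit gene, with 428, 671 and 763 CPM in E138A ears and 702, 828 and 1033 CPM in WT ears, a log2 fold change of -0.38 ± 0.14 (adjusted p = 0.0268). Rplp0, Rpl5, Rpl11 and Rps19 had -0.27, -0.00154, 0.07 and -0.12 at 1 month, none called.

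The direction over the family at 1 month depended on the libraries and the test. In 2 fits the 1 month libraries were limited by the sign of their GC correlation, with all day 5 libraries kept. This split was chosen after seeing the data. With the 5 of negative GC correlation (3 E138A, 2 WT) 6 genes were higher and 2 lower, with a median of 0.01. With the 7 of positive GC correlation (3 E138A, 4 WT) 30 were higher and 3 lower, with a median of 0.27. With limma voom and library quality weights 5 were higher and 59 lower, with a median of -0.39, and with the length correlation as a covariate 8 were higher and 17 lower. Leaving out E138A replicate 1, 2 or 6 or WT replicate 6 of 1 month gave 3 higher and 2 lower each. These counts also have no share of all genes beside them, since the shares given belong to the main fit.

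The change of the E138A effect between day 5 and 1 month was not called for any member. The median change in log2 fold change was -0.29 over the 90 genes and 0.02 over all genes, and 86 of 90 values were negative. With edgeR 0 of 90 genes passed at adjusted p below 0.05, against 8.77% of all genes called in the same fit, 4.68% higher and 4.09% lower. Of the 90, 9 had an unadjusted p below 0.05, for which no share of all genes was counted. DESeq2 called 1, Rpl3l, and limma voom with library quality weights called 78, all negative. Leaving out E138A replicate 1 or WT replicate 1 of 1 month gave 2 and 1 called, all negative. With the length correlation as a covariate 3 were called, Rpl7a and Rps4l positive and Rpl7 negative. Rpl3l had a change of -1.49 ± 0.51 (adjusted p = 0.0739) and Rpl12 one of -0.73 ± 0.27 (adjusted p = 0.102), while Rpl36al had -0.01 ± 0.13 and Rpl7l1 0.06 ± 0.18 (adjusted p = 0.995 and 0.937).

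Nearly all genes listed for building ribosomes were higher in E138A ears. Of 40 nucleolar biogenesis factors, 39 were higher in E138A ears at day 5 and 37 at 1 month, and none was lower, with median log2 fold changes of 0.90 and 0.77; of all genes 20.7% were called higher at day 5 and 25.5% at 1 month. Their summed level was 3453 to 4876 CPM in E138A ears and 2259.8 to 2381 CPM in WT ears at day 5, and 3186 to 4724 CPM in E138A ears and 1579 to 2554 CPM in WT ears at 1 month, with no overlap at either time. Nop56, a core protein of box C/D snoRNPs, averaged 171 ± 32.5 CPM in E138A ears and 76.5 ± 6.07 CPM in WT ears at day 5 (SD, n = 6 each), a log2 fold change of 1.16 ± 0.13 (adjusted p = 3.88e-07). Nolc1, a nucleolar chaperone of snoRNPs, and Rrs1, a large-subunit assembly factor, rose by 1.19 ± 0.13 and 1.11 ± 0.11 at day 5 and by 1.17 ± 0.13 and 1.13 ± 0.11 at 1 month. The number of higher biogenesis factors ranged from 34 to 40 over 40 alternatives at day 5 and from 28 to 40 over 42 at 1 month, with 0 lower in each. The difference in fold between this list and the ribosomal protein genes was not tested. Summed proliferation markers were higher beside it, at 273 to 836 CPM in E138A ears and 70.6 to 277 CPM in WT ears at 1 month, and their part was not tested.

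**Figure D4:**
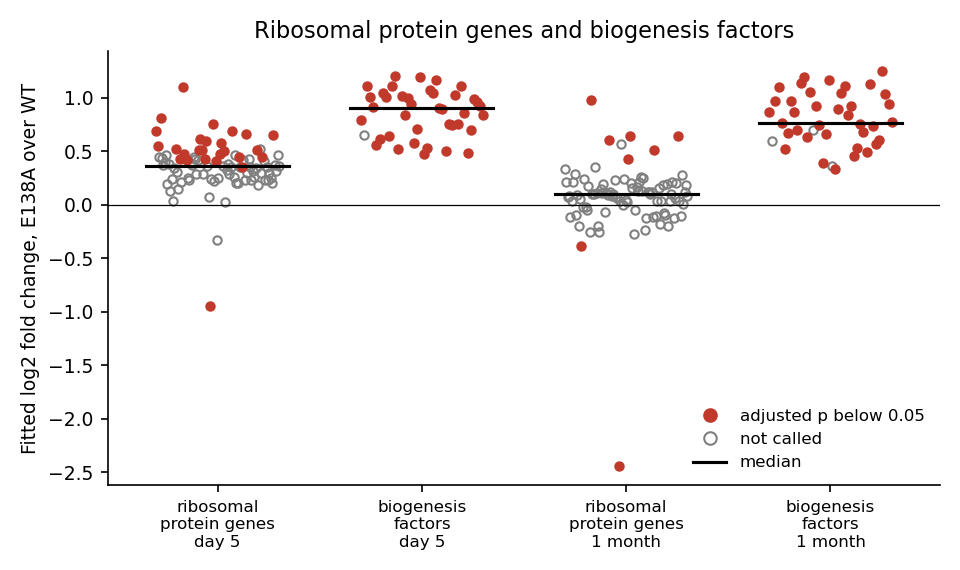
Fitted log2 fold change, E138A over WT, of the 90 ribosomal protein genes and of 40 nucleolar biogenesis factors at day 5 and at 1 month, with filled points for adjusted p below 0.05 and bars at the medians. The medians of ribosomal protein genes and biogenesis factors are 0.36 and 0.90 at day 5 and 0.10 and 0.77 at 1 month.

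Other parts of the translation machinery were also called higher in part, beside 20.7% of all genes called higher at day 5 and 25.5% at 1 month. They had median log2 fold changes at day 5 and 1 month of 0.44 and 0.34 for RNA polymerase I, 0.51 and 0.50 for initiation factors, 0.23 and 0.03 for elongation factors and other TOP genes, and 0.42 and 0.25 for mitochondrial ribosomal proteins. RNA polymerase I and its factors had 8 of 14 higher at day 5 and 7 of 14 at 1 month, with none lower; the catalytic subunits Polr1a and Polr1b rose by 0.86 ± 0.13 and 0.93 ± 0.14 at day 5. Initiation factors had 14 of 23 and 12 of 23 higher and none lower, led by the helicase Eif4a1, which rose by 0.86 ± 0.11 at day 5 and 1.03 ± 0.11 at 1 month, and by Eif6, which keeps free large subunits apart from small ones, with 0.89 ± 0.17 at day 5 and 0.84 ± 0.17 at 1 month. Elongation factors and other TOP genes had 7 of 18 higher at each time and none lower, with Pabpc1, the poly(A) binding protein, at 0.62 ± 0.08 and 0.65 ± 0.08. Of 79 mitochondrial ribosomal protein genes, which serve a separate ribosome, 43 were higher and none lower at day 5, and 28 were higher and 1 lower at 1 month.

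Of 20 regulators of mTORC1 and TOP mRNAs 5 were higher and 3 lower at each time, close to the shares of all genes (20.7% higher and 20.2% lower at day 5, 25.5% and 21.5% at 1 month). Myc, a transcription factor that drives ribosome genes, averaged 132 ± 14.2 CPM in E138A ears and 57.9 ± 5.42 CPM in WT ears at day 5, a log2 fold change of 1.20 ± 0.10 (adjusted p = 6.19e-09), and had 0.55 ± 0.10 at 1 month (adjusted p = 9.02e-05). Mxi1, an antagonist of Myc, fell by 0.45 ± 0.08 and 0.63 ± 0.08 on the log2 scale. Larp1, which holds TOP mRNAs out of translation, rose by 0.62 ± 0.10 and 0.53 ± 0.10. Of 10 p53 targets none was higher and 1, Bbc3, was lower at each time.

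Between the times, reads of single members moved far more than the family. In E138A ears 5 genes were higher at 1 month than at day 5 and 1 was lower, 6 of 90 against 19.4% of all genes called, 11.2% higher and 8.23% lower. In WT ears 24 were higher and 1 was lower, 25 of 90 against 9.09% of all genes, 6.28% higher and 2.81% lower. In E138A ears 3 of 90 genes had all 1 month libraries above all day 5 libraries and 1 had them all below, against 5.06% and 3.55% of all genes. In WT ears 15 had them all above and 1 all below, against 2.93% and 2.17% of all genes. The median log2 difference was 0.18 in E138A ears and 0.45 in WT ears, against -0.02 and -0.03 over all genes. When each gene was summed with the rows that share at least 50 stretches of 75 bases with it, 0 genes were called in E138A ears and 12 in WT ears. The time comparisons share their libraries with the genotype comparisons. In E138A ears, leaving out E138A replicate 3 or 4 of 1 month gave 16 or 14 called, E138A replicate 1 of day 5 13, and E138A replicate 5 or WT replicate 1 of 1 month 10. In WT ears, leaving out WT replicate 1 of 1 month gave 50 higher and 1 lower, E138A replicate 6 of 1 month 39 called, WT replicate 3 or 5 of 1 month 15 each, WT replicate 4 of 1 month 17, and WT replicate 1, 2 or 4 of day 5 16 each.

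The largest shifts with time in both genotypes were those of Rpl6l and Rpl12, which share sequence with copies. Rpl12 (ENSMUSG00000038900, chr2:32961559-32965345, GRCm38, plus strand), whose protein sits beside the stalk, stood at 377, 553 and 864 CPM in E138A ears at 1 month, against 39.4, 47.9 and 53.9 CPM at day 5, and at 361, 573 and 698 CPM in WT ears at 1 month, against 24.05, 26.7 and 29.98 CPM at day 5. The times did not overlap in either genotype, and the log2 differences were 3.61 ± 0.21 in E138A ears and 4.34 ± 0.22 in WT ears (adjusted p = 1.79e-11 and 6.02e-12). Gm10275 (chr10:29698746-29699380, minus strand), an annotated transcribed processed pseudogene, holds the whole 495-base coding sequence of Rpl12 with 0 mismatches. The first 60 coding bases of both, read from GENCODE M21 transcripts with the start codon in capitals, are identical, so a read within the coding sequence fits both rows.
Rpl12: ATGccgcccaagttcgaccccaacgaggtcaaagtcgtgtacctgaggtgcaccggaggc
Gm10275: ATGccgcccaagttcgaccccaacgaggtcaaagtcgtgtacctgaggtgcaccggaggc
Gm10275 averaged 604 ± 269 CPM at 1 month and 899 ± 116 CPM at day 5 in E138A ears, and 549.9 ± 149.9 CPM at 1 month and 724 ± 53.4 CPM at day 5 in WT ears (SD, n = 6 each). Rpl12 took 49.3 ± 2.48% of the pair's reads at 1 month and 5.00 ± 0.656% at day 5 in E138A ears, and 49.8 ± 2.73% at 1 month and 3.58 ± 0.282% at day 5 in WT ears. Every library of 1 month lay between 45.8% and 54.1%, and every library of day 5 between 3.13% and 5.66%.

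Summed over the rows that share its sequence, Rpl12 lost both calls with time. The sum averaged 1178 ± 477 CPM at 1 month and 949.8 ± 119 CPM at day 5 in E138A ears, and 1095 ± 281 CPM at 1 month and 753 ± 55.0 CPM at day 5 in WT ears. The log2 differences of the sum were 0.31 in E138A ears and 0.54 in WT ears (edgeR adjusted p = 0.318 and 0.101). The genotype difference of day 5 was 0.33 for the sum (adjusted p = 0.204), against 0.81 for Rpl12 alone. What divided the reads differently at the 2 times was not tested.

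**Figure D5:**
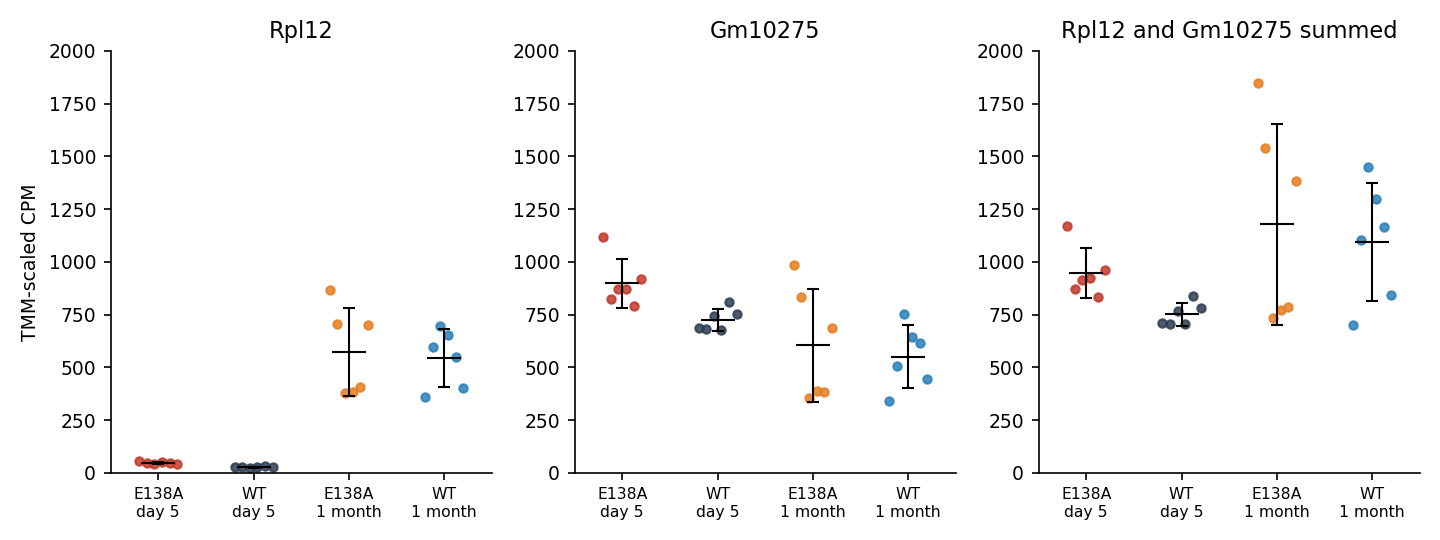
Scaled CPM of Rpl12, of its identical-coding copy Gm10275 and of the pair summed, in every library (points) with the group mean and SD (bars, n = 6). Rpl12 stands at 53.9 CPM or less in all day 5 libraries and at 361 CPM or more in all 1 month libraries, while the sums of the 2 times overlap.

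Rpl6l, an annotated pseudogene of Rpl6, stood at 7.03, 12.2 and 15.5 CPM at 1 month and 0, 0.172 and 1.25 CPM at day 5 in E138A ears, and at 7.09, 11.0 and 15.5 CPM at 1 month and 0, 0.602 and 0.893 CPM at day 5 in WT ears. Gm6136, another copy of Rpl6, went the other way, with 14.6 ± 3.57 CPM at 1 month and 51.6 ± 23.4 CPM at day 5 in E138A ears. Summed with Rpl6 and the other rows, the log2 differences were 0.14 in E138A ears and 0.29 in WT ears, neither called. Rps3a3, a pseudogene of Rps3a1, was lower at 1 month, with 0.965 ± 0.235 CPM at 1 month and 2.60 ± 0.410 CPM at day 5 in E138A ears, and its sum with Rps3a1 was not called in either genotype. Rps13, Rpl27a and Rpl35 also rose with time in both genotypes, with log2 differences in WT ears of 1.08 ± 0.20, 0.90 ± 0.17 and 0.87 ± 0.20. Their sums with the rows that share sequence had 0.42, 0.33 and 0.47 in WT ears (adjusted p = 0.145, 0.219 and 0.151), and none was called in E138A ears either.

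Summing with copies left most genotype calls of the named genes in place, Rpl12 and Rpl27 apart. Rpl27 averaged 28.5 ± 4.38 CPM in E138A ears and 13.3 ± 1.58 CPM in WT ears at day 5, while its processed copy Gm11518 averaged 226 ± 30.3 CPM in E138A ears and 195 ± 19.2 CPM in WT ears. Summed with the rows that share its sequence, Rpl27 stood at 344 ± 33.6 CPM in E138A ears and 253 ± 17.6 CPM in WT ears, a log2 fold change of 0.44 at day 5 and 0.39 at 1 month (adjusted p = 0.0755 and 0.111). Summed in the same way, Rpl41 kept 0.77, Rps2 0.66, Rps6 0.44, Rpl10 0.52 and Rpl38 0.60 at day 5, all still called. Rpl36al kept 0.59 at day 5 and 0.60 at 1 month (adjusted p = 1.29e-05 and 5.71e-06). In all, 22 genes were higher and 1 lower at day 5 after summing, and 5 higher and 2 lower at 1 month.

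With time in WT ears, Rpl10, Rpl22l1 and Rpl31 were the 3 members called higher in all 40 alternatives. Rpl31 stood at 211, 331 and 461 CPM at 1 month and 133, 155 and 175 CPM at day 5 in WT ears, without overlap, a log2 difference of 1.10 ± 0.19 (adjusted p = 0.00079), and of 0.63 after summing (adjusted p = 0.0236). Rpl22l1 had 0.82 ± 0.20 and Rpl10 0.75 ± 0.17 in WT ears (adjusted p = 0.0112 and 0.00656). Among the 10 largest rises in WT ears were also Rps14 with 1.00 ± 0.29, Rpl39 with 0.96 ± 0.24, Rps7 with 0.93 ± 0.26 and Rps12 with 0.93 ± 0.18 (adjusted p = 0.0305, 0.0137, 0.0263 and 0.0022). Their calls held in 30, 39, 28 and 37 of 40 alternatives, where the lowest log2 differences were 0.21, 0.36, 0.28 and 0.08. Rpl3l had a log2 difference with time of 0.18 ± 0.37 in E138A ears (adjusted p = 0.769), where none of the 6 skeletal muscle markers was called, against 19.4% of all genes. In WT ears it rose by 1.67 ± 0.37 (adjusted p = 0.00582), beside a rise of all 6 markers, against 6.28% of all genes called higher. Fau, a small-subunit protein fused to a ubiquitin-like domain, was called higher with time in E138A ears (adjusted p = 0.000879) and rose by 1.42 ± 0.23 in WT ears (adjusted p = 0.000494). Of the 3 genes listed outside the symbol rule, it alone was called with time in each genotype. Fau was not summed with rows that share its sequence, and its calls were not followed over the alternatives. None of the 40 biogenesis factors was called with time in either genotype with edgeR, against 19.4% of all genes in E138A ears and 9.09% in WT ears. With limma voom and library quality weights 0 were higher and 14 lower in E138A ears, and 7 higher and 9 lower in WT ears.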

How the data were processed

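The 24 libraries were polyA-selected whole-ear RNA, sequenced single-end. Their values are expected counts per gene, which the authors made with RSEM and deposited unscaled, per the file headers; the submitters' processing notes name RSEM 1.3.0, STAR 2.5.2, DESeq2 1.14.1 and GRCm38, without an annotation release. The column headers write day 30 where the labels write 1 month. RSEM divides reads that fit several genes by estimate, so members with near-identical copies have uncertain counts.

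Expected counts were rounded and tested with edgeR 4.0.16 (R 4.3.3; filterByExpr, TMM factors, robust quasi-likelihood F test, two-sided) in 1 fit of all 24 libraries with 1 coefficient a group, and p-values were adjusted (Benjamini-Hochberg) over the 17287 genes tested, with calls at 0.05. Levels are TMM-scaled counts relative to library totals (CPM) with the SD over 6 libraries; SE is that of the log2 fold change. The procedure was tested on simulated data. Sequence sharing used 75-base stretches of GENCODE M21 transcripts, and promoters came from RefSeq (GRCm38.p6). Alternatives covered scaling, filters, DESeq2 1.42.0, limma 3.58.1 voom with quality weights, library covariates, summing with copies, subsets of libraries and leaving out each library. The members, gene lists and markers were chosen with earlier results of these data known. Genes were named as the 10 largest called changes in each direction and comparison, the paralogs with their parents, the stalk with Rpl12 and Rpsa, Rpl5, Rpl11 and Rps19, the 3 highest and lowest levels, and up to 4 genes of smallest adjusted p in each list; Rpl21, Rps27a and the copies were described beside them.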

Additional observations from a re-analysis of the deposited data

Results flagged for a closer look

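In the named genes, tested group by group, the highest or lowest of 6 libraries stood apart from the other 5 by a gap above Dixon's 95% critical value in 17 of 164 sets of values; chance alone flags about 1 set in 20. E138A replicate 1 of day 5 was the library apart in 13 of the 17, each time as the highest of its group. Its levels were 592 CPM for Rpl11, 874 CPM for Rpl21, 478 CPM for Rpl22, 305 CPM for Rpl27a, 296 CPM for Rpl35, 211 CPM for Rpl36a and 224 CPM for Rpl38. They were also 397 CPM for Rpl39, 1172 CPM for Rpl7, 738 CPM for Rps27, 66.7 CPM for Rps27l, 3.38 CPM for Rps3a3 and 1504 CPM for Rps4x. Among WT libraries of day 5, replicate 5 was the highest for Rplp0 with 2745 CPM, against 2069 to 2308 CPM in the other 5, and for Rps2 with 1106 CPM, against 848 to 931 CPM in the other 5. Replicate 4 was the lowest WT library of day 5 for Rpl10 with 373 CPM, against 489.8 to 547 CPM in the other 5. At 1 month, E138A replicate 1 was the lowest of its group for Rps3a3 with 0.507 CPM, against 0.957 to 1.145 CPM in the other 5.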

How the results depend on the processing

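Counts of called ribosomal protein genes moved with the fit. Shares of all genes were given for the main fit only, so whether all genes moved alike is not shown here. At day 5 (26 called) there were 70 with limma voom and quality weights, 70 with the library GC correlation as a covariate and 73 with the day 5 libraries fitted alone; with the length correlation 29 were called, mostly lower. At 1 month (8 called) there were 64 with voom, 20 with the GC correlation, 25 with the length correlation and 4 with the 1 month libraries alone. There were 33 with the 1 month libraries of positive GC correlation and all day 5 libraries. For the change of the E138A effect (0 called) there was 1 with scaling by totals only, 1 with DESeq2, 78 with voom, 2 with the GC correlation and 3 with the length correlation (2 positive, 1 negative). For time in E138A ears (6 called) there were 10 with DESeq2, 28 with voom, 12 with the GC correlation, 27 with the length correlation, and 0 when summed with all rows sharing a stretch or at least 50. For time in WT ears (25 called) there were 40 with DESeq2, 78 with voom, 15 with the length correlation, 12 in each of both summed settings and 49 with the WT libraries alone. Summing has its own effect, since the counts of copies enter; otherwise the cause was not tested.

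Leaving out each library in turn gave 16 to 29 called at day 5, 5 to 10 at 1 month, 0 to 2 for the change of the effect, 4 to 16 for time in E138A ears and 15 to 51 for time in WT ears. Among 41 named fold changes, signs turned for Rpl38 at day 5 with the length correlation (-0.0470), for Rpl7a (-0.0815), Rps2 (-0.15) and Rps4l (-0.00676) at 1 month with voom, and for Rps3a3 over time in WT ears when summed (0.0282 with all rows sharing a stretch, 0.0291 with at least 50). Among genes called at day 5 but outside these 41, the lowest day 5 value over the alternatives was below 0 for Rpl7a (-0.0271), Rpl29 (-0.0300), Rpl6 (-0.00585) and Rpl37rt (-0.00185). Members not called at day 5 reached lower values, among them Rplp0 (-0.577), Rpl39l (-0.433), Rplp1 (-0.413) and Rps19 (-0.337). The ribosomal protein share of protein-coding counts in WT ears at day 5 was 4.06%. The added settings (at least 50 stretches, the split by GC correlation and the biogenesis counts) were chosen after seeing the data.

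Replicate numbers did not pair the libraries: correlations of same-numbered libraries ranged from -0.73 to 0.39. With a replicate block 17 genes were called at day 5, 5 at 1 month and 16 for time in WT ears. Reads shared with copies limit the separation of members from pseudogenes, and members such as Rpl6l and Rps3a3 lie at few CPM.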
